A study of Mus musculus with 18 samples.

Results

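Hepcidin, its regulators, the proteins that carry iron into and out of cells, and the metallothioneins were followed as 10 genes in the livers of 18 mice. The genes were the rows of the deposited count table whose symbol was Hamp, Hamp2, Bmp6, Tfr2, Tfrc, Trf, Slc40a1, Slc39a14, Mt1 or Mt2, and all 10 were found among 54752 genes and passed the filter on low counts, which 21840 genes passed. The mice were male C57BL/6 animals, 6 weeks old at the start, and 6 per group were sequenced at week 22. Controls were given olive oil by intraperitoneal injection 2 times a week and had double distilled water by daily gavage. CCl4 mice had carbon tetrachloride (CCl4) injected on the same schedule, with the water by gavage, and CCl4_PTH mice had the CCl4 injections and PTH by gavage once a day. PTH, also written PZH in the labels, was taken as Pien Tze Huang, a traditional Chinese medicine. The design text calls the CCl4 animals a model of liver cancer. The sources used here do not say if the sampled tissue contained tumour, or how much time had passed since the last injection. Each library comes from a separate mouse and keeps the number of its label.

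Hepcidin is a peptide hormone that hepatocytes secrete, and it limits iron in plasma by binding the exporter ferroportin and sending it for degradation. Its transcription rises with iron, through BMP ligands from sinusoidal endothelial cells and SMAD proteins in hepatocytes, and with inflammation, through interleukin-6 and STAT3. Cells take iron up as transferrin through transferrin receptors or as free iron through metal transporters, and metallothioneins are small cysteine-rich proteins that bind zinc and copper and are induced by metals, glucocorticoids and inflammatory signals.

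Levels are given as CPM, counts scaled to a common library size with the TMM factors of edgeR. Total counts ran from 67.2 M to 118.9 M per library, and ribosomal RNA loci took 30.6% to 55.8% of them. The marker lists gave a liver signature in every library: 10 hepatocyte markers summed to between 23091 and 64815 CPM. Relative to control, all 10 markers of monocyte-derived macrophages, all 10 of dividing cells and 9 of 9 tested neutrophil markers were higher in CCl4, and 6 of 10 hepatocyte markers were lower. Library 1 of CCl4_PTH stood apart from the other 5 of its group. Its 16 genes of the interleukin-6 and STAT3 list summed to 5346 CPM against 645 to 845, and its neutrophil markers to 219 against 14.4 to 31.9. Its hepatocyte markers summed to 58087 CPM against 39088 to 51807, and its erythroid markers to 64.9 against 199 to 319. Its Kupffer cell markers summed to 146 against 180 to 347, with 7 of 10 below the other 5 libraries and 1 above. Its sinusoidal endothelium markers summed to 296 against 366 to 443, with 5 of 10 below and 1, Lyve1, above (29.5 against 4.82 to 6.58). Tests of the 10 genes and counts of the lists are given with and without that library where CCl4_PTH enters. No label marks that library as different, and it was singled out after its values were seen. In bulk tissue, fewer cells of a type and less RNA per cell cannot be told apart.

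The 2 hepcidin genes lie on the minus strand of chromosome 7 in GRCm38, Hamp at 30942368 to 30944032 and Hamp2 at 30922372 to 30924681. Hamp is the hepcidin that acts on ferroportin, and Hamp2 is its neighbouring copy in the mouse. The bases just before their RefSeq starts (GRCm38.p6) are shown because both genes share most of this stretch and because both arms of hepcidin control act here in Hamp, the BMP and SMAD arm through a GGCGCC core and the STAT3 arm through a TTCNNNGAA site. The Hamp window is chr7:30944033-30944179 and the Hamp2 window is chr7:30924185-30924331, both on the minus strand, 5′ to 3′, and the Hamp2 window lies within the longer gene that GENCODE M21 annotates. Each runs from base −150 to base −4 from the start, 147 bases, with the motif letters in capitals.
Hamp: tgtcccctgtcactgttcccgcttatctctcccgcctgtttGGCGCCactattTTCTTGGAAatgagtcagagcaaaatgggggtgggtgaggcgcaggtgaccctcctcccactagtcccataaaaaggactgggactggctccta
Hamp2: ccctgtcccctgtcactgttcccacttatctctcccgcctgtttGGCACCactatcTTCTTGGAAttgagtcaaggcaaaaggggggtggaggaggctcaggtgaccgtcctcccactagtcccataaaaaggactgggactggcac
In an alignment of the 2 windows, 132 of 150 columns were identical (88%). Hamp held GGCGCC at −109 to −104 and TTCTTGGAA at −97 to −89. Hamp2 held TTCTTGGAA at −94 to −86, and at −106 to −101 it held GGCACC in place of GGCGCC. Over 32851 RefSeq windows of the same 147 bases, searched on both strands, 6.84% held GGCGCC, 4.02% held TTCNNNGAA and 7.73% held GGCACC, a motif searched only after the Hamp2 sequence had been read. The motifs do not overlap each other in these windows, and a match is a description of the letters.

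Hamp passed the test in none of the 3 comparisons by edgeR, and its groups overlapped in each. Control libraries 1, 2, 3, 4, 5 and 8 held 122, 91.5, 242, 107, 146 and 148 CPM. CCl4 libraries 1, 2, 4, 5, 7 and 8 held 138, 148, 89.3, 173, 122 and 165 CPM, and all but library 4 lay inside the range of the controls. CCl4_PTH libraries 1, 2, 3, 6, 7 and 8 held 423, 74.9, 214, 176, 222 and 148 CPM, so library 1 was the highest of all 18 and library 2 the lowest. The log2 fold change was −0.04 ± 0.31 (SE, n = 6 and 6, edgeR adjusted p = 0.934) in CCl4 against control. In CCl4_PTH against CCl4 it was 0.59 ± 0.31 (edgeR adjusted p = 0.227), and without CCl4_PTH 1 it was 0.28 ± 0.26 (edgeR adjusted p = 0.522). Against control the CCl4_PTH value was 0.55 (edgeR adjusted p = 0.194), and 0.21 (adjusted p = 0.597) without that library.

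Hamp2 was scarce and, in control and CCl4, varied between mice of the same group more than Hamp did. Control libraries held 1.45, 0.229, 0.703, 0.306, 0.626 and 6.01 CPM, and CCl4 libraries 7.89, 0.778, 0.3001, 2.75, 0.544 and 3.40 CPM. CCl4_PTH libraries held 1.94, 5.54, 9.35, 4.39, 6.92 and 6.27 CPM. The highest control library was 26.3 times the lowest and the highest CCl4 library also 26.3 times, against 4.82 times in CCl4_PTH, where library 1 was the lowest and the other 5 lay close together. None of the 3 comparisons passed: the log2 fold change was 0.73 ± 0.80 (edgeR adjusted p = 0.479) for CCl4 against control, 1.14 ± 0.79 (adjusted p = 0.388) for CCl4_PTH against CCl4 and 1.87 ± 0.81 (adjusted p = 0.098) for CCl4_PTH against control. Without CCl4_PTH 1 the last 2 were 1.33 ± 0.82 (edgeR adjusted p = 0.305) and 2.04 ± 0.84 (adjusted p = 0.0871). A single control library decided the calls against control. Without control 8, the edgeR values became 1.93 (adjusted p = 0.0419) for CCl4 and 3.08 (adjusted p = 0.00785) for CCl4_PTH, and without CCl4 1 the value for CCl4 against control was −0.04 (adjusted p = 0.974). Hamp and Hamp2 are paralogs, and the sources used here do not state how reads that match both were counted, so their separate counts are uncertain. The similarity of their transcripts was not measured here. The antisense gene Gm44662, which overlaps exons of Hamp2, had 1 to 17 counts per library.

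The share of Hamp2 in the counts of both hepcidin genes does not depend on scaling between libraries. It was 1.17%, 0.249%, 0.290%, 0.285%, 0.428% and 3.90% in control libraries. In CCl4 libraries it was 5.43%, 0.523%, 0.335%, 1.57%, 0.443% and 2.02%. In CCl4_PTH libraries it was 0.457%, 6.88%, 4.18%, 2.44%, 3.02% and 4.08%. The smallest count behind these shares, 12 Hamp2 counts in control 2, gives an exact 95% interval of 0.129% to 0.435%, and the interval of CCl4_PTH 2 ran from 6.44% to 7.35%. Intervals cover counting error only, and the spread between mice was far wider. All CCl4_PTH libraries but library 1 lay above 5 of the 6 controls. The group means were 1.05% ± 1.44, 1.72% ± 1.94 and 3.51% ± 2.14 (SD, n = 6) in control, CCl4 and CCl4_PTH libraries. CCl4_PTH exceeded control by 2.46 percentage points (two-sided exact permutation p = 0.0368, adjusted p = 0.0736 over 6 share tests), which did not pass. It passed without control 8 (3.03 points, exact permutation test, adjusted p = 0.026) and without CCl4_PTH 1 (3.07 points, adjusted p = 0.0325). The other differences were 0.67 points between CCl4 and control and 1.79 between CCl4_PTH and CCl4 (exact permutation test, adjusted p = 0.504 and 0.198), the latter 2.40 (adjusted p = 0.0805) without CCl4_PTH 1.

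**Figure D1:**
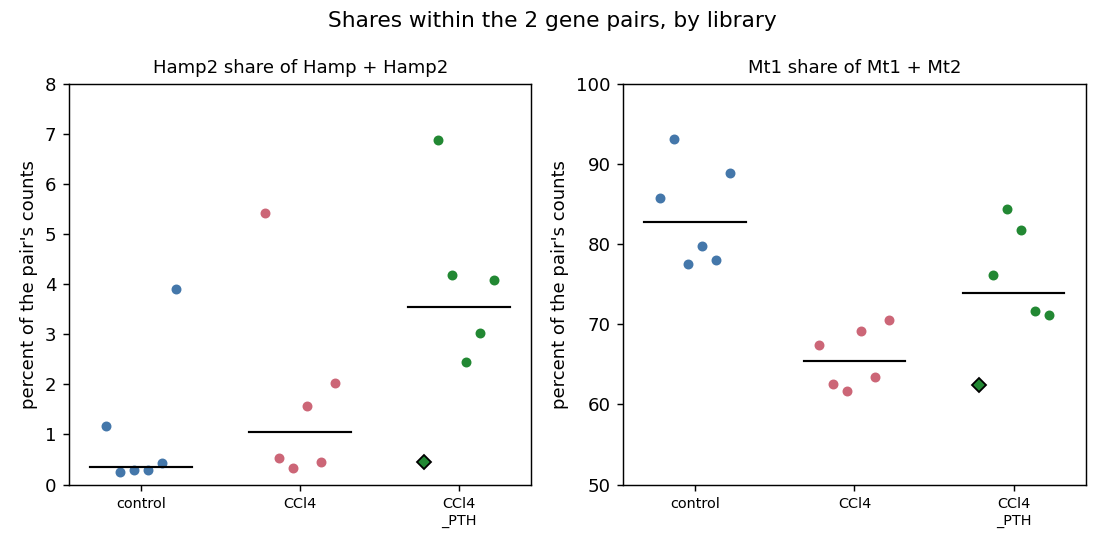
Share of Hamp2 in the counts of Hamp and Hamp2 (left) and of Mt1 in the counts of Mt1 and Mt2 (right), in percent, 1 point per library with the group median as a line; the diamond is CCl4_PTH 1 and the right axis starts at 50%. The Hamp2 share of CCl4_PTH 1 is 0.457% while the other 5 CCl4_PTH libraries lie from 2.44% to 6.88%, and the Mt1 shares of CCl4 lie below those of control with no overlap.

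Bmp6 encodes a BMP ligand through which liver iron raises hepcidin. It was a low-level gene, at 4.89, 5.43, 7.40, 4.78, 5.31 and 5.79 CPM in control, 4.37, 5.31, 4.30, 4.37, 3.12 and 4.41 CPM in CCl4, and 3.75, 2.90, 6.93, 3.97, 6.24 and 4.68 CPM in CCl4_PTH libraries. Of the CCl4 libraries, 5 lay below all 6 controls, and the log2 fold change of −0.38 ± 0.19 did not pass (edgeR adjusted p = 0.106). The CCl4_PTH libraries ran from below the lowest CCl4 library to above 5 of the 6 controls, with 0.14 ± 0.19 against CCl4 (adjusted p = 0.697) and −0.24 against control (adjusted p = 0.363). Without CCl4_PTH 1 these were 0.22 (edgeR adjusted p = 0.492) and −0.19 (adjusted p = 0.502). Exons of Bmp6 (chromosome 13, 38345107 to 38500302, plus strand) overlap the antisense gene Txndc5, which had 4152 to 10466 counts per library against 285 to 624 for Bmp6. Without a stated use of strand the reads of the overlap cannot be told apart. Sinusoidal endothelium markers summed to 325 to 375 CPM in control, 351 to 367 in CCl4 and 296 to 443 in CCl4_PTH, and their part in the Bmp6 values was not tested.

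Tfr2 fell under CCl4, and it was the only 1 of the 10 genes that differed between CCl4_PTH and CCl4 with all libraries. Transferrin receptor 2 is an iron sensor of hepatocytes that binds iron-loaded transferrin and takes part in the signal to hepcidin. Control libraries were tight, at 215, 226, 239, 234, 226 and 203 CPM. CCl4 libraries held 155, 126, 73.7, 139, 87.6 and 134 CPM, all below the lowest control. CCl4_PTH libraries held 214, 153, 160, 170, 192 and 124 CPM, between the other groups and overlapping both. The log2 fold change was −0.91 ± 0.16 for CCl4 against control (edgeR adjusted p = 0.000146), a level 1.88 times lower, and 0.50 ± 0.16 for CCl4_PTH against CCl4 (adjusted p = 0.0477). The second call was lost when any 1 of 8 libraries was left out (CCl4 2, 4 or 7, or CCl4_PTH 1, 2, 3, 6 or 7; edgeR adjusted p from 0.0577 to 0.111). Against control, CCl4_PTH was at −0.41 ± 0.16 (edgeR adjusted p = 0.0674), and at −0.50 without CCl4_PTH 1, which passed (adjusted p = 0.0296). Tfr2 lies on chromosome 5, 137569840 to 137587481, plus strand, and no other gene overlaps its exons. The hepatocyte marker sum moved in the same order, with medians of 59280, 41102 and 46043 CPM in control, CCl4 and CCl4_PTH, and its part in the Tfr2 values was not tested.

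Tfrc, the transferrin receptor 1 that most cells use to import transferrin iron and whose messenger RNA is stabilised when cells lack iron, rose under CCl4. Control libraries held 12.5, 9.65, 8.67, 12.4, 12.1 and 6.24 CPM and CCl4 libraries 17.8, 18.5, 16.0, 23.2, 16.2 and 18.5 CPM, with no overlap. In CCl4_PTH, libraries 2, 3, 6, 7 and 8 held 12.3, 8.09, 11.0, 10.8 and 11.9 CPM, all inside the control range, while library 1 held 26.8 CPM, the highest of all 18. The log2 fold change was 0.84 ± 0.23 for CCl4 against control (edgeR adjusted p = 0.00632), and −0.45 ± 0.23 for CCl4_PTH against CCl4 (adjusted p = 0.224). Without CCl4_PTH 1 the latter was −0.74 ± 0.16 and passed (edgeR adjusted p = 0.00412). Against control CCl4_PTH stood at 0.39 (adjusted p = 0.225) with library 1 and 0.06 (adjusted p = 0.817) without it. The gene spans chromosome 16, 32608920 to 32632794, plus strand. Dividing cell markers, all 10 of which were higher in CCl4 than in control, summed to 4.18 to 6.40 CPM in control, 21.8 to 44.0 in CCl4 and 24.8 to 33.8 in CCl4_PTH. Markers of erythroid cells, which take up transferrin iron through transferrin receptor 1, summed to 197 to 561, 268 to 487 and 64.9 to 319 CPM in the same order. The part of either cell type in the Tfrc values was not tested.

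Trf encodes transferrin, the plasma protein that carries iron, which hepatocytes secrete. Per kilobase of exon it was the most abundant of the 10 in control, at 2023 CPM per kb, ahead of Hamp at 348 and Tfr2 at 51.6. It held 8104, 6429, 6230, 5751, 6339 and 7453 CPM in control libraries and 6767, 8416, 4314, 7879, 6125 and 6501 CPM in CCl4 libraries, which overlapped throughout. CCl4_PTH libraries held 18353, 7166, 5687, 7657, 6351 and 5796 CPM, and library 1 alone lay above all others. The log2 fold changes were −0.01 ± 0.27 in CCl4 against control (edgeR adjusted p = 0.978) and 0.35 ± 0.27 in CCl4_PTH against CCl4 (adjusted p = 0.438), and the second was −0.01 (adjusted p = 0.982) without library 1. Against control CCl4_PTH stood at 0.34 (edgeR adjusted p = 0.372), and at −0.05 (adjusted p = 0.871) without library 1. Trf lies on chromosome 9, 103204001 to 103230444, minus strand; the overlapping sense gene Gm20425 had 0 to 176 counts per library against at least 318997 for Trf.

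Slc39a14 encodes ZIP14, a transporter through which hepatocytes take up iron that is not bound to transferrin, and zinc. Control libraries held 203, 134, 127, 129, 118 and 138 CPM, and CCl4 libraries 156, 171, 108, 240, 123 and 190 CPM. CCl4_PTH libraries 2, 3, 6, 7 and 8 held 109, 102, 126, 130 and 96.9 CPM, while library 1 held 441 CPM, 4.04 times the median of those 5. The log2 fold change was 0.22 ± 0.33 for CCl4 against control (edgeR adjusted p = 0.611) and 0.02 ± 0.33 for CCl4_PTH against CCl4 (adjusted p = 0.975). Without library 1, CCl4_PTH was 0.53 lower than CCl4 on the log2 scale (−0.53 ± 0.18, edgeR adjusted p = 0.0496). Against control it was not called, at 0.24 with library 1 and at −0.34 (edgeR adjusted p = 0.176) without it. The gene spans chromosome 14, 70303469 to 70351425, minus strand.

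Slc40a1 encodes ferroportin, the iron exporter that hepcidin removes from the cell surface. Its libraries varied little within each group, with coefficients of variation from 10.7% in control to 14.1% in CCl4. Control libraries held 142, 128, 135, 110, 117 and 111 CPM, CCl4 libraries 121, 99.8, 124, 96.1, 138 and 106 CPM, and CCl4_PTH libraries 106, 141, 120, 122, 147 and 121 CPM. The ranges overlapped in all 3 pairs of groups, and the log2 fold changes were −0.12 ± 0.11, 0.14 ± 0.11 and 0.03 (edgeR adjusted p = 0.397, 0.431 and 0.886, for CCl4 against control, CCl4_PTH against CCl4 and CCl4_PTH against control). Without CCl4_PTH 1 the last 2 were 0.21 (edgeR adjusted p = 0.193) and 0.06 (adjusted p = 0.725). Slc40a1 lies on chromosome 1, 45908068 to 45926523, minus strand. Kupffer cells, which also export iron through ferroportin, had marker sums of 115 to 198 CPM in control, 169 to 496 in CCl4 and 146 to 347 in CCl4_PTH. Of these markers, Clec4f and Timd4 were not called in CCl4 against control, and the part of the sum in the Slc40a1 values was not tested.

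**Figure D2:**
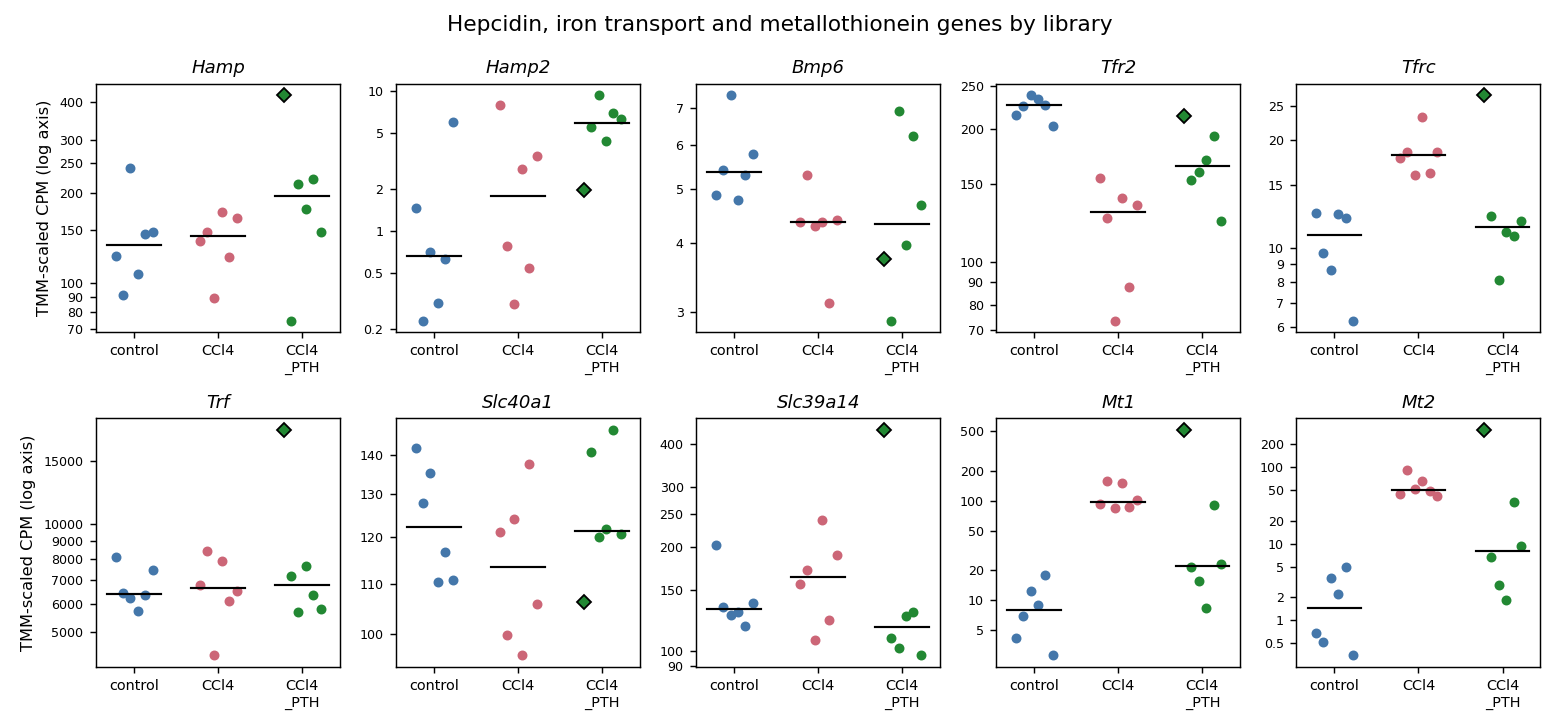
TMM-scaled CPM of the 10 genes on log axes, 1 point per library, with the group median as a line and CCl4_PTH 1 as a diamond. Tfr2, Tfrc, Mt1 and Mt2 separate CCl4 from control with no overlap, and CCl4_PTH 1 is the highest of the 18 libraries for Hamp, Tfrc, Trf, Slc39a14, Mt1 and Mt2.

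Mt1 and Mt2, the metallothioneins expressed in most tissues, had the largest fold changes of the 10 genes in CCl4 against control. Mt1 stood at 4.13, 6.87, 12.3, 8.83, 17.8 and 2.78 CPM in control libraries and at 92.2, 156, 83.4, 149, 85.4 and 101 CPM in CCl4 libraries. The groups did not overlap, and the log2 fold change was 3.66 ± 0.89 (edgeR adjusted p = 0.00283), a level 12.7 times higher. In CCl4_PTH, libraries 2, 3, 6 and 8 held 21.3, 15.5, 8.32 and 23.1 CPM, below every CCl4 library, library 7 held 90.4 CPM, within the CCl4 range, and library 1 held 517 CPM, the highest of all 18. With all 6 libraries the log2 fold change against CCl4 was 0.02 ± 0.80 (edgeR adjusted p = 0.993). Without library 1 it was −1.79 ± 0.56 (edgeR adjusted p = 0.0374), and the 5 libraries averaged 31.7 CPM ± 33.3 (SD, n = 5) against 111 ± 32.8 (SD, n = 6) in CCl4. Against control, CCl4_PTH was higher by 3.68 ± 0.90 (edgeR adjusted p = 0.006) with library 1 and by 1.83 ± 0.55 (adjusted p = 0.0219) without it. These 2 groups overlapped, with libraries 3 and 6 of CCl4_PTH inside the control range.

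Mt2 went the same way with larger steps. Control libraries held 0.684, 0.514, 3.57, 2.24, 5.02 and 0.347 CPM, and CCl4 libraries 44.7, 93.6, 51.8, 66.7, 49.3 and 42.1 CPM, a level 28.3 times higher (log2 fold change 4.82 ± 1.18, edgeR adjusted p = 0.00293). CCl4_PTH libraries held 312, 6.66, 2.88, 1.86, 35.7 and 9.36 CPM, so that 5 of 6 lay below every CCl4 library and library 1 lay above them all, at 46.8 times the median of the other 5. The log2 fold change against CCl4 was 0.08 ± 0.99 (edgeR adjusted p = 0.971) with library 1 and −2.35 ± 0.76 (adjusted p = 0.043) without it. Against control it was 4.90 ± 1.19 (edgeR adjusted p = 0.00586) and 2.44 ± 0.75 (adjusted p = 0.0263). Here too CCl4_PTH and control overlapped, with libraries 3 and 6 of CCl4_PTH inside the control range. The genes are neighbours on the plus strand of chromosome 8, Mt2 at 94172664 to 94173568 and Mt1 at 94179082 to 94180327. The antisense gene Gm45774 overlaps Mt2 exons and moved with it, at 0 to 22 counts per control library, 76 to 207 per CCl4 library and 1213 in CCl4_PTH 1, so part of the counts of either may be reads of the other.

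The make-up of the pair also differed, with a smaller share of Mt1 in CCl4. Mt1 made up 85.8%, 93.0%, 77.5%, 79.8%, 78.0% and 88.9% of the pair's counts in control libraries and 67.4%, 62.5%, 61.7%, 69.1%, 63.4% and 70.6% in CCl4 libraries, with no overlap. CCl4_PTH libraries had 62.4%, 76.2%, 84.4%, 81.7%, 71.7% and 71.1%, and library 1 was the only 1 of them within the CCl4 range. The widest exact 95% interval among these shares was that of control 8, 83.9% to 92.8%, from 216 counts. The mean was 18.1 percentage points lower in CCl4 than in control (65.8% ± 3.74 against 83.8% ± 6.39, SD, n = 6; difference −18.1, two-sided exact permutation p = 0.00216, the smallest that 6 against 6 can give, adjusted p = 0.013). CCl4_PTH, at 74.6% ± 7.98, exceeded CCl4 by 8.80 points (exact permutation p = 0.0325, adjusted p = 0.0736), which did not pass, and by 11.2 points without library 1, which did (adjusted p = 0.00649). Its difference from control was −9.27 points (exact permutation p = 0.0519, adjusted p = 0.0778), and −6.83 (adjusted p = 0.156) without library 1. Per kilobase of exon, Mt1 and Mt2 stood at 7.06 and 3.51 CPM per kb in control and at 89.3 and 98.7 in CCl4, where their order did not differ beyond their spread (SD 26.3 and 33.0). The exon length used for Mt1, 1246 bases, covers the whole annotated span of the gene, unlike the 588 bases used for Mt2. If the transcripts present are shorter, Mt1 per kilobase is set too low, so the order of the pair depends on the annotation. The annotation used for counting is not given, so how far reads outside those transcripts entered the Mt1 share cannot be told. The control shares also rest on few Mt2 counts: control 2 had 27, beside 20 of the antisense gene Gm45774.

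Of the 10 genes, 3 were called higher (Tfrc, Mt1, Mt2) and 1 lower (Tfr2) in CCl4 than in control, where edgeR called 47.4% of all genes tested, 26.3% higher and 21.2% lower. The share of the 10 is near that background and is not a result about them. Between CCl4_PTH and CCl4, 1 of 10 was called, higher, against 12.1% of all genes, 7.1% higher and 4.95% lower. Without CCl4_PTH 1, 4 of 10 were called, all lower (Tfrc, Slc39a14, Mt1 and Mt2), where 17.4% of all genes were called, 7.06% lower and 10.3% higher. Library 1 was the highest of its group in these 4 genes, so leaving it out lowers their group means. Because it was chosen after its values were seen, these calls are a description and not an independent test. Against control, CCl4_PTH had 2 of the 10 higher and 0 lower (27.7% of all genes called, 17.4% higher and 10.3% lower), and without library 1 it had 2 higher (Mt1, Mt2) and 1 lower (Tfr2), where 26% were called, 15.9% higher and 10.2% lower. All 4 genes called in CCl4 against control had groups that did not overlap, as did 26.1% of all genes. The 3 comparisons share groups, so their values for a gene are not independent of each other.

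**Figure D3:**
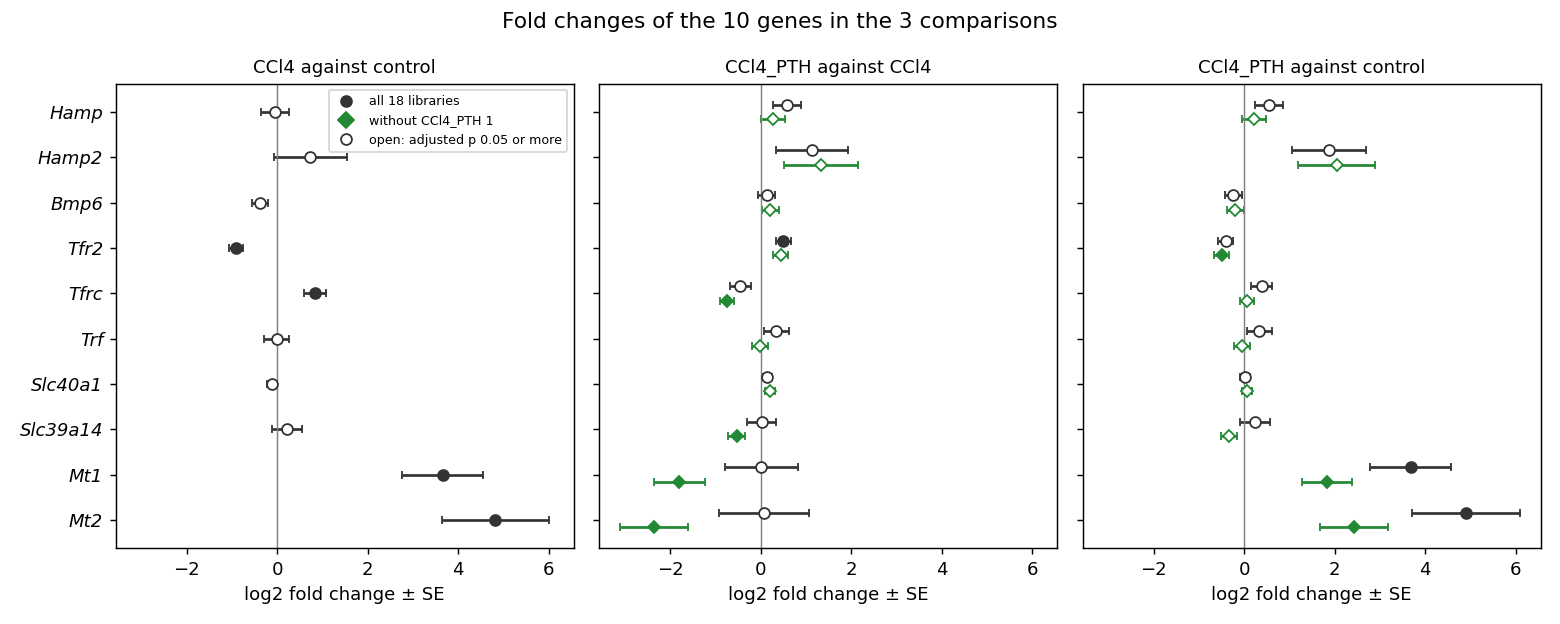
Log2 fold changes of the 10 genes with SE in the 3 comparisons, from all 18 libraries (circles) and, for the comparisons with CCl4_PTH, without CCl4_PTH 1 (diamonds); open symbols did not pass an adjusted p of 0.05. Without that library, Mt1 moves from 0.02 to −1.79 and Mt2 from 0.08 to −2.35 in CCl4_PTH against CCl4, while Tfr2 moves from 0.50 to 0.44.

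Ordered by level per kilobase in control, the 10 genes ran Trf (2023 CPM per kb), Hamp (348), Tfr2 (51.6), Slc40a1 (13.8), Slc39a14 (13.4), Mt1 (7.06), Mt2 (3.51), Hamp2 (2.66), Tfrc (1.66) and Bmp6 (1.44). Neighbours in that order did not differ beyond their spread for Slc40a1 and Slc39a14 (SD 1.47 and 2.92), for Mt1 and Mt2 (SD 4.48 and 3.26), for Mt2 and Hamp2 (SD 3.82 for Hamp2), for Hamp2 and Tfrc, and for Tfrc and Bmp6 (SD 0.41 and 0.25). In CCl4 the metallothioneins, at 98.7 for Mt2 and 89.3 for Mt1, came behind Trf and Hamp and ahead of Tfr2 at 27.5. The place of Mt1 in both orders rests on an exon length that covers its whole annotated span, and may be too low.

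Further genes of the pathways were read from 5 lists. Each count of genes called is read against the share of all genes tested that edgeR called: 26.3% higher and 21.2% lower in CCl4 against control, 7.1% and 4.95% in CCl4_PTH against CCl4, and 17.4% and 10.3% in CCl4_PTH against control. For counts without CCl4_PTH 1 the shares were 10.3% higher and 7.06% lower against CCl4, and 15.9% and 10.2% against control. Nothing particular to a list is read from its count. Of 26 tested genes of hepcidin control by BMP and SMAD, 0 were higher and 7 lower in CCl4 than in control, with a median log2 fold change of 0.09 against 0.05 over all genes. Tmprss6, the protease that trims the BMP co-receptor hemojuvelin and so holds hepcidin down, fell by 1.02 ± 0.19 (113.5 CPM ± 36.1 against 230.1 ± 18.7, SD, n = 6; edgeR adjusted p = 0.000191), and hemojuvelin itself (Hjv) fell by 0.68 ± 0.17 (adjusted p = 0.00337). The activin receptors Acvr2a and Acvr2b, which pair with BMP receptors, fell by 0.64 ± 0.12 and 1.72 ± 0.24 (edgeR adjusted p = 0.000201 and 1.38e-05). Of the genes that BMP signals induce, Id1, Smad7 and Atoh8 stood at 0.36, 0.21 and 0.42 and did not pass (edgeR adjusted p = 0.396, 0.225 and 0.173). Others of the list went both ways and did not pass. Id3 and Smad6 stood at 0.28 and 0.27 (edgeR adjusted p = 0.275 and 0.341), and Id2 and Smad9 at −0.05 and −0.90 (adjusted p = 0.83 and 0.0502). Hjv and these BMP-induced genes were picked after their values were seen. In CCl4_PTH against CCl4, 3 of the 26 were higher and 0 lower: Acvr2a (0.47 ± 0.12, adjusted p = 0.0158), Tmprss6 (0.64 ± 0.19, adjusted p = 0.0296) and Grem1, a secreted BMP antagonist close to the limit of detection (0.226 CPM ± 0.162 against 0.0256 ± 0.0427, SD, n = 6; edgeR adjusted p = 0.0451). The Tmprss6 call was lost without CCl4 2, 4 or 7 or CCl4_PTH 2, 3, 6 or 7 (edgeR adjusted p from 0.0571 to 0.0748). The Grem1 call was lost without CCl4 1, 2, 4, 7 or 8 or CCl4_PTH 2, 3, 6, 7 or 8 (adjusted p from 0.0621 to 0.116). Against control, CCl4_PTH had 2 higher and 1 lower. Without CCl4_PTH 1, 5 were higher and 1 lower than in CCl4, and 1 higher and 1 lower than in control.

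Of 14 tested genes of hepcidin control by interleukin-6 and STAT3, 8 were higher and 2 lower in CCl4 than in control (median log2 fold change 0.62). Lcn2, a siderophore-binding protein of the acute phase, rose by 7.28 ± 1.39 (191 CPM ± 167 against 1.24 ± 0.517, SD, n = 6; edgeR adjusted p = 0.000386), and Il1b, an inflammatory cytokine, by 2.0 ± 0.32 (adjusted p = 4.82e-05). Cebpa, a transcription factor of hepatocytes that also acts on the hepcidin promoter, fell by 1.33 ± 0.23 (adjusted p = 0.000116). It was the 1 gene of the list that differed between CCl4_PTH and CCl4, higher by 0.83 ± 0.23 (edgeR adjusted p = 0.0231), a call lost without CCl4 4 or 7 or CCl4_PTH 6 or 7 (adjusted p from 0.0589 to 0.067). Without CCl4_PTH 1 the count was 1 higher and 3 lower, and the median went from −0.05 to −0.40. Against control, 4 were higher and 0 lower, and 4 and 1 without that library. The neutrophil marker sum ran beside these values, at 2.07 to 5.69 CPM in control, 17.9 to 117 in CCl4 and 14.4 to 219 in CCl4_PTH, with Ly6g and Mmp8 at 0 counts in all control libraries, and its part in them was not tested.

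In CCl4_PTH 1, 14 of the 16 genes of hepcidin control by interleukin-6 and STAT3 lay above the highest of the other 5 CCl4_PTH libraries, as did 7 of the 10 genes. Cebpa lay below them, at 46.7 CPM against 102 to 168, and Il22 was at 0 in all 6. Of the 10 genes, 2 lay below the other 5. Other lists also had many genes outside the other 5: 11 of 24 iron genes lay above and 10 below. For haem genes it was 10 of 20 above and 7 below, and for zinc and copper genes 12 of 28 and 8. The share over all genes was not computed, so these counts are not read as a result about the 10 genes or a list. Against the median of the other 5 CCl4_PTH libraries, Saa2 was at 122 times, Saa1 at 92.3, Lcn2 at 78.6 and Socs3 at 6.20 times, while Jak1 was at 1.26, Jak2 at 1.27 and Crp at 1.43 times. Il6 stood at 2.21 CPM against 0 to 0.0681, and Il6st at 246 against 186 to 220. Of the 10 genes, Mt2 was at 46.8, Mt1 at 24.3, Slc39a14 at 4.04, Trf at 2.89, Tfrc at 2.43, Hamp at 2.40 and Tfr2 at 1.34 times. Slc40a1 was at 0.872, Bmp6 at 0.800 and Hamp2 at 0.309 of that median. The list genes named here were picked after their values were seen, and a single library has no replicate check.

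**Figure D4:**
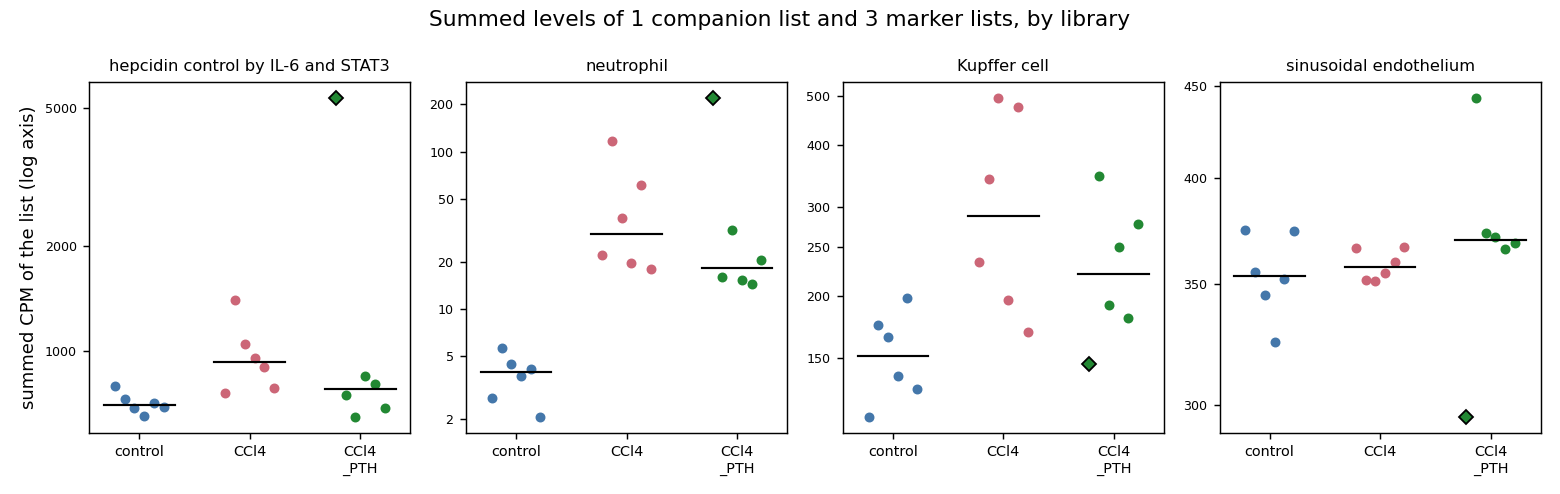
Summed CPM of the interleukin-6 and STAT3 list and of the neutrophil, Kupffer cell and sinusoidal endothelium markers, on log axes, 1 point per library, with the group median as a line and CCl4_PTH 1 as a diamond. CCl4_PTH 1 is the highest of the 18 libraries for the first list (5346 CPM) and for neutrophil markers (219 CPM), and the lowest for sinusoidal endothelium markers (296 CPM).

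Of 24 genes of iron uptake, storage and export, 6 were higher and 10 lower in CCl4 than in control. Both iron regulatory proteins, which bind iron-responsive elements in messenger RNAs such as those of Tfrc, Slc40a1 and the ferritins, were among the lower: Ireb2 fell by 0.97 ± 0.11 (52.7 CPM ± 9.18 against 103 ± 10.6, SD, n = 6; edgeR adjusted p = 2.26e-06) and Aco1 by 0.90 ± 0.16 (adjusted p = 0.000127). Slc25a37, the mitochondrial iron importer, fell by 0.63 ± 0.10 (adjusted p = 7.44e-05), and Steap2, a metalloreductase, rose by 1.65 ± 0.19 (adjusted p = 1.48e-06). In CCl4_PTH against CCl4, 5 were higher and 1 lower. Ireb2 rose by 0.71 ± 0.11 with no overlap (edgeR adjusted p = 0.00125), Aco1 by 0.72 ± 0.16 (adjusted p = 0.00745) and Steap3, a ferrireductase of the transferrin cycle, by 0.68 ± 0.19 (adjusted p = 0.0276). The Steap3 call was lost without CCl4 4, 5 or 7 or CCl4_PTH 2, 3, 6 or 7 (adjusted p from 0.0508 to 0.0788). The lower gene was the ferritin heavy chain Fth1, at −0.51 ± 0.15 (edgeR adjusted p = 0.0351), named because it stood alone. Its partner Ftl1 stood at 0.01 (adjusted p = 0.955). The Fth1 call was not checked with each library left out. Without CCl4_PTH 1, 8 were higher and 4 lower. Against control, CCl4_PTH had 8 higher and 2 lower, and 5 and 2 without that library.

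Of 20 haem genes, 5 were higher and 12 lower in CCl4 than in control (median log2 fold change −0.42). Flvcr1, a haem exporter, rose by 1.61 ± 0.17 (edgeR adjusted p = 8.22e-07), and Hmox1, the inducible haem oxygenase that frees iron from haem, by 2.38 ± 0.32 (62.0 CPM ± 35.7 against 11.9, n = 6; adjusted p = 1.1e-05). Abcg2, which exports porphyrins, fell by 0.95 ± 0.10 (adjusted p = 1e-06), and Cd163, the macrophage receptor for haemoglobin bound to haptoglobin, fell by 2.40 ± 0.32 (adjusted p = 1.08e-05). Of 10 Kupffer cell markers, a list that also holds Cd163, 7 were higher. Clec4f (−0.26, edgeR adjusted p = 0.0899) and Timd4 (−0.10, adjusted p = 0.9) of that list were not called. Between CCl4_PTH and CCl4, 5 were higher and 3 lower. Hmox1 fell by 1.52 ± 0.31 to 21.6 CPM ± 7.68 (SD, n = 6; edgeR adjusted p = 0.00547), Slc48a1, a transporter of haem out of lysosomes, fell by 0.69 ± 0.13 (adjusted p = 0.00373), and Abcg2 rose by 0.62 ± 0.10 (adjusted p = 0.00142). Beside these values, 5 of 10 markers of monocyte-derived macrophages were lower and 0 higher in CCl4_PTH than in CCl4 (median log2 fold change −0.84; 6 lower and −0.77 without CCl4_PTH 1). The marker sum ran from 450 to 943 CPM in CCl4, 281 to 505 in CCl4_PTH and 58.5 to 68.9 in control, and its part in the Hmox1 and Slc48a1 values was not tested. Without CCl4_PTH 1, 6 haem genes were higher and 3 lower. Against control, 4 were higher and 6 lower, and 2 and 6 without that library.

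Of 26 tested zinc and copper genes, 9 were higher and 8 lower in CCl4 than in control, with a median of 0.00. The messenger RNA of the zinc sensor Mtf1, the transcription factor that drives metallothionein genes, stood at −0.02 ± 0.12 (edgeR adjusted p = 0.901). That of the zinc exporter Slc30a1, another of its targets, stood at −0.21 ± 0.14 (adjusted p = 0.234). Other zinc transporter genes went both ways, such as Slc39a10 at 1.01 ± 0.21 and Slc39a9 at −0.29 ± 0.08 (edgeR adjusted p = 0.000525 and 0.0073). All of these were picked after their values were seen, and their part in the metallothionein values was not tested. The copper genes Ccs, Sod1 and Slc31a1, which encode the chaperone of superoxide dismutase, that enzyme and the copper importer, fell by 1.08 ± 0.17, 0.97 ± 0.14 and 0.65 ± 0.10 (edgeR adjusted p = 3.53e-05, 1.73e-05 and 2.19e-05). In CCl4_PTH against CCl4, 2 were higher, Slc31a1 (0.48 ± 0.10, adjusted p = 0.00475) and the copper pump Atp7b (0.52 ± 0.16, adjusted p = 0.0345), and 1 was lower, the zinc transporter Slc39a7 (−0.41 ± 0.13, adjusted p = 0.0411). The Atp7b call was lost without CCl4 2, 4, 5 or 7 or CCl4_PTH 3, 6 or 7 (edgeR adjusted p from 0.053 to 0.1). The Slc39a7 call was lost without CCl4 1, 2, 5 or 7 or CCl4_PTH 2, 3, 7 or 8 (adjusted p from 0.051 to 0.0887). Without CCl4_PTH 1, 2 were higher and 3 lower, and against control the count was 4 higher and 3 lower with and without it. Mt4 had 0 counts in control and CCl4 libraries, and Mt3 had 0 in control.

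**Figure D5:**
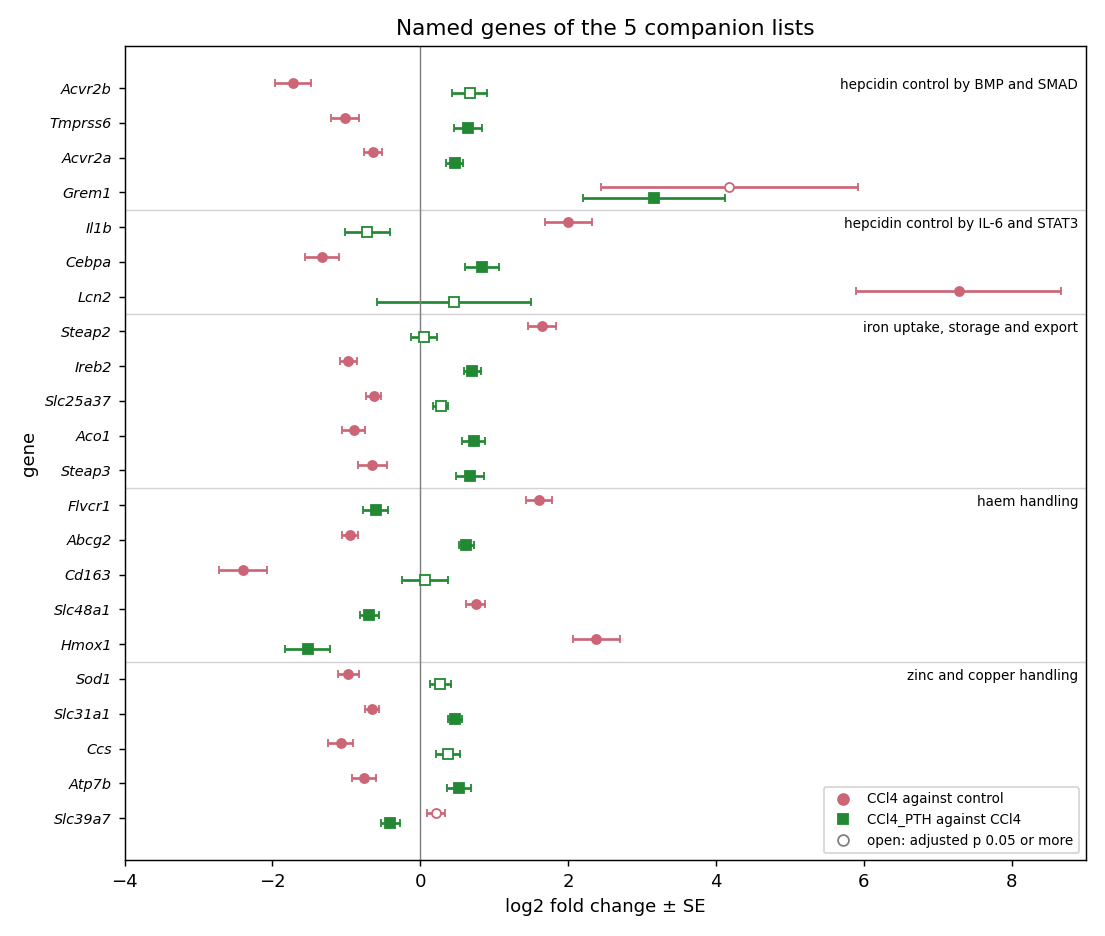
Log2 fold changes with SE of the named genes of the 5 lists in CCl4 against control (circles) and CCl4_PTH against CCl4 (squares); open symbols did not pass an adjusted p of 0.05. Ireb2 stands at −0.97 and 0.71 and Hmox1 at 2.38 and −1.52 in the 2 comparisons, which share the CCl4 libraries.

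The genes whose log2 CPM ran closest to 5 of the 10 over the 18 libraries were ranked by Pearson's r among 12091 genes, as a description over libraries that share the group structure. For Hamp they were Kng2 (r = 0.77), Kng1 (0.76) and Rab4a (0.74). These values fell to 0.58, 0.55 and 0.61 without CCl4_PTH 1. For Tfrc they were Lrrc8a, Sybu and Polr3d (each 0.90). For Mt1 they were Sybu (0.95), Acnat2 (0.91) and Btg2 (0.90), and these stood at 0.94, 0.89 and 0.88 without that library. For Slc40a1 they were Enpp5 (0.77), Snx29 (0.74) and Zfp961 (0.74), and for Bmp6 Thap7 (0.80), Hist1h4h (0.77) and Bola1 (0.76). Sybu was near the top for both Tfrc and Mt1, which both rose under CCl4.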

How the data were processed

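Liver RNA of 18 mice was sequenced (paired ends, 150 bases, Illumina HiSeq) once ribosomal RNA had been removed, per the labels' protocols. Per the submitters' processing notes, the build was GRCm38 and the tools included HISAT2 2.2.1, Bowtie2 2.5.1, StringTie 2.1.5, cutadapt 4.2 and FastQC 0.11.9. Counting tool, annotation and strand setting: not given in the sources used here. Values in the authors' table are estimated counts, as judged from the deposited numbers, and rounding changed 0 of them. Of 54752 genes, edgeR's filterByExpr (minimum count 10) kept 21840. Total counts were 67.2 M to 118.9 M per library, of which 35.6 M to 79.7 M lay outside 357 ribosomal RNA loci.

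All comparisons came from 1 fit of edgeR 4.0.16 in R 4.3.3 (TMM, robust quasi-likelihood F test, 3 groups), with Benjamini-Hochberg adjustment over all genes tested and a threshold of 0.05; SE is the log2 fold change over the square root of F. Shares were compared by two-sided exact permutation tests, adjusted over 6. The fit was also run on simulated counts in which few genes were changed and no library stood apart. That setting differs from these data, so it does not cover scaling or outlying libraries here. Symbols were matched to GENCODE M21, and promoters came from RefSeq (7 of 10 genes matched). Smallest chi-square per gene between libraries of a group was 53.6 over 45 pairs, so all counted separately.

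The 10 genes and the lists were chosen with earlier results of these data known. Genes named from each list were the 3 with the smallest p in CCl4 against control and up to 3 in CCl4_PTH against CCl4 among those called; the 3 nearest genes by Pearson's r among those with a mean of at least 1 CPM were named for 5 of the 10. Alternatives were RLE factors, library sizes only, DESeq2 1.42.0, voom with quality weights (limma 3.58.1), no filter, a stricter filter, ribosomal RNA loci left out, only the groups compared, a replicate block, the log2 ratio of a pair in place of its share, and each library left out.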

Additional observations from a re-analysis of the deposited data

Results flagged for a closer look

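In groups of 6, a value was singled out where its gap to the nearest other value, over the range of the group, passed Dixon's 95% critical value. This was checked in 36 groups of values and met in 10, each time by the highest value of the group. For independent, normally distributed values about 1 group in 20 would pass. The values were not logged and the groups share libraries, so that rate need not hold here.

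CCl4_PTH 1 was set apart from the rest of its group in 5 genes: Tfrc at 26.8 CPM (next 12.3), Trf at 18400 CPM (next 7660), Slc39a14 at 441 CPM (next 130), Mt1 at 517 CPM (next 90.4) and Mt2 at 312 CPM (next 35.7). Hamp2 stood out in control 8, at 6.01 CPM (next 1.45), and so did its share of the hepcidin counts there, 3.9%, while in CCl4 1 the share was 5.43% (next 2.02%). Tfrc in CCl4 5 was 23.2 CPM (next 18.5), and Slc39a14 in control 1 was 203 CPM (next 138).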

How the results depend on the processing

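With 1 library left out, the number of genes called for CCl4_PTH against CCl4 ran from 1509 (without CCl4_PTH 7) to 3854 (without CCl4_PTH 1), and that of the 10 genes from 0 to 4. It was 0 without CCl4 2, 4 or 7 or CCl4_PTH 2, 3, 6 or 7. For CCl4 against control the 10 genes gave 4 or 5 calls and for CCl4_PTH against control 2 or 3. The values below are log2 fold changes unless named otherwise. Their range with 1 library left out, where the direction turned, was −0.17 to 0.15 for Hamp, −0.038 to 1.93 for Hamp2 and −0.12 to 0.10 for Trf in CCl4 against control. In CCl4_PTH against CCl4 it was −1.79 to 0.25 for Mt1, −2.35 to 0.32 for Mt2, −0.53 to 0.16 for Slc39a14 and −0.0091 to 0.45 for Trf. In CCl4_PTH against control it was −0.051 to 0.41 for Trf, −0.026 to 0.060 for Slc40a1 and −0.34 to 0.34 for Slc39a14. The Hamp2 share in CCl4 against control ran from −0.076 to 1.24 percentage points, the Hamp2 share in CCl4_PTH against control from 1.78 to 3.07, and the Mt1 share in CCl4_PTH against CCl4 from 6.84 to 11.2.

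Scaling by library sizes only moved the median log2 fold change of all genes from 0.05 to 0.63, from −0.03 to −0.13 and from 0.04 to 0.51 (CCl4 to control, CCl4_PTH to CCl4, CCl4_PTH to control), and the share of calls that were higher from 55.3% to 91.4%, from 58.9% to 43.4% and from 62.8% to 96.4%. With it, 1097 genes and 0 of the 10 were called for CCl4_PTH against CCl4, and 9912 genes and 7 of the 10 for CCl4_PTH against control. Values turned for Hamp (0.54), Bmp6 (0.22), Trf (0.52) and Slc40a1 (0.48) in CCl4 against control, for Slc39a14 (−0.058), Mt1 (−0.11) and Mt2 (−0.069) in CCl4_PTH against CCl4, and for Bmp6 (0.23) and Tfr2 (0.071) in CCl4_PTH against control. The 4 calls in CCl4 against control kept their direction, with Tfr2 at −0.36 and Tfrc at 1.38. Of 22 named list genes, none turned. Over all alternatives other than a library left out, the named tests of these genes kept the call 217 times and lost it 33 times.

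With voom and quality weights, 4167 genes and 5 of the 10 were called for CCl4_PTH against CCl4, where Mt1 was −2.08, Mt2 −2.94 and Slc39a14 −0.44; Slc39a14 was −0.16 in CCl4_PTH against control and Trf 0.060 in CCl4 against control. Mt1 in CCl4_PTH against CCl4, close to 0, also turned with RLE factors (−0.0005), DESeq2 (−0.0006) and the stricter filter (−0.0052), and Trf in CCl4 against control with the stricter filter (0.012). DESeq2 gave Mt2 no adjusted p. With only the groups compared, 0 of the 10 were called for CCl4_PTH against CCl4. Same-numbered libraries did not pair: 0 of 13 such pairs had a correlation of deviations over 0.1, and 1 was best matched by its own number. With a replicate block, 84 genes and 0 of the 10 were called for CCl4_PTH against CCl4 and 3343 and 0 for CCl4_PTH against control, while Hamp was 0.11 in CCl4 against control, Slc39a14 −0.091, Mt1 −0.64 and Mt2 −1.03 in CCl4_PTH against CCl4, and Slc40a1 −0.052 in CCl4_PTH against control. The cause was not tested for any of these changes. Depth limits Hamp2, with as few as 12 counts in a library, and Mt2, with as few as 24.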
